A study of Mus musculus with 6 samples.

Results

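The Wnt ligands, their receptors and their secreted modulators were taken as the mouse protein-coding genes with a symbol of the Wnt, Fzd, Dkk (with Dkkl1), Sfrp or Rspo families, together with Wif1, Lrp5, Lrp6, Ror1, Ror2, Ryk, Cthrc1, Notum and Axin2. This gave 51 genes of 35856 with a target in the deposited files, of which 21790 are protein-coding. Wnt proteins are lipid-modified glycoproteins that act over short distances: they bind Frizzled receptors, and with the co-receptors Lrp5 or Lrp6 they stabilise beta-catenin, which activates genes together with TCF/LEF factors. Other Wnt proteins signal through Frizzled with Ror2 or Ryk to the cytoskeleton and to cell polarity. Dkk and Sfrp proteins and Notum hold the signal back outside the cell, R-spondins prolong it by keeping Frizzled at the surface, and in connective tissue these genes are known for their part in matrix formation, repair and the fate of mesenchymal cells.

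Total RNA depleted of ribosomal RNA was sequenced from 6 mouse libraries, 1 for each of 3 cell types in each of 2 arms, to ask how expression differs once Mdm2, the ubiquitin ligase that restrains p53, is removed from cells that lack p53. Per the labels, all cells came from mice with floxed Mdm2 alleles and no p53 (Mdm2fl/fl p53-/-): fibroblasts grown from ear punches, a T cell lymphoma and a sarcoma, all 3 in culture and infected with a retrovirus for GFP alone or for GFP with CreERT2, a Cre recombinase that 4-hydroxytamoxifen (4-OHT) switches on. The libraries labelled as Mdm2 deleted received 4-OHT (1 mM in the labels), and the libraries labelled control received the ethanol vehicle, for 48 h in fibroblasts and sarcoma and 6 h in the lymphoma. The labels do not say which retrovirus each library carried or how many cultures or animals stand behind it, and none is marked as 4-OHT-treated cells without CreERT2, so the deletion and the drug exposure cannot be told apart. Values are listed in the order fibroblast, lymphoma, sarcoma within an arm.

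The measured values did not bear out several labels, so each library is called by its label only. Mdm2 itself stood at 30.5, 31.1 and 31.1 CPM (counts scaled to library size, with TMM factors) in the libraries labelled deleted, against 28.4, 28.0 and 28.5 CPM in those labelled vehicle (log2 fold change 0.13, edgeR adjusted p = 0.0539), summed over all its targets, so that a loss limited to the floxed part would not show in full. Trp53 was read in all 6 libraries, at 22.3 to 28.5 CPM. This too is a sum over all its targets, so reads from what remains of a disrupted gene would be counted, and it does not decide the p53 label. Of 12 T cell markers 1, Lck, reached 1 CPM in any library and Cd3d, Cd3e, Cd247 and Cd28 were at 0 in all 6, also in those labelled lymphoma, while 9 of 10 fibroblast markers passed 1 CPM. Libraries of the same arm with different cell type labels had log2 differences with an SD of 0.111 to 0.166 over genes, against 0.497 to 0.518 between arms. Interferon-response genes moved with the arm, with Cxcl10 at a shared log2 fold change of 5.87 and all 10 of 10 listed genes higher in deleted. In the test described below, 25.0% of all tested genes were higher. The 10 genes were listed with earlier results of these data known, so their count is context only.

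For the shared effect, the 3 labelled cell types served as replicates of the arm in edgeR's quasi-likelihood test, which kept the cell type label as a blocking term and called a gene at a Benjamini-Hochberg adjusted p under 0.05. The spread behind these p-values is that between 6 libraries and may be technical: these values do not show whether the labelled cell types of an arm are separate cultures. Of the 51 genes, 25 passed the filter on low counts. The other 26 had at most 10 estimated counts in any library, and 8 of them, Dkk1, Dkk4, Fzd10, Rspo4, Sfrp5, Wnt3a, Wnt8b and Wnt9b, had 0 in all 6. A count of 0 allows up to 3 counts, which is 0.0797 to 0.113 CPM per library.

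Summed expression of the 51 Wnt genes was lower in the libraries labelled deleted, mainly through Dkk2, Dkk3 and Cthrc1. Summed over the 51 genes, the level was 171, 183 and 165 TPM (a level scaled to transcript length and library size) in the libraries labelled deleted, against 296, 293 and 301 TPM in those labelled vehicle. The secreted inhibitors made up the larger part of that gap, with 38.0, 40.9 and 37.5 TPM in deleted against 113, 114 and 118 TPM in vehicle. Their part came from Dkk2 (mean 15.5 TPM in deleted, 77.9 TPM in vehicle) and Dkk3 (18.2 and 32.6 TPM). Sfrp4 was lower too, but at 0.540 and 0.898 TPM it added little. Sfrp1, Sfrp2 and Notum were not lower, with log2 fold changes of 0.17, 0.50 and 0.47 that did not pass the threshold used below. Frizzled receptors summed to 25.7, 27.3 and 26.4 TPM in deleted, against 35.9, 35.4 and 37.3 TPM in vehicle. Sums over the ligands overlapped between the arms, at 15.2, 16.6 and 14.1 TPM in deleted and 14.1, 14.3 and 13.9 TPM in vehicle. In bulk RNA, fewer cells of a type and less RNA per cell cannot be told apart. The fibroblast markers moved with the arm, with a summed level of 10236 to 10485 CPM in deleted and 17417 to 18190 CPM in vehicle, and so did, in the opposite direction and at low levels, the lists of T cell markers (3.76 to 4.80 CPM in deleted, 1.96 to 2.26 CPM in vehicle; 1 of 12 above 1 CPM) and macrophage markers (7.52 to 9.61 CPM in deleted, 4.86 to 5.51 CPM in vehicle; 1 of 7, Cd68, above 1 CPM). Further lists separated too: endothelial markers (1.70 to 2.24 CPM in deleted, 0.574 to 0.717 CPM in vehicle; 0 of 6 above 1 CPM), chondrocyte markers (22.2 to 23.0 CPM in deleted, 16.6 to 18.5 CPM in vehicle; Col2a1 and Sox9 of 6) and melanocyte markers (12.2 to 14.3 CPM in deleted, 8.50 to 9.29 CPM in vehicle; Mitf of 6) were higher in deleted, and adipocyte markers (10.7 to 11.5 CPM in deleted, 12.1 to 12.8 CPM in vehicle; Fabp4 and Pparg of 6) were lower. Their part in these results was not tested.

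**Figure D1:**
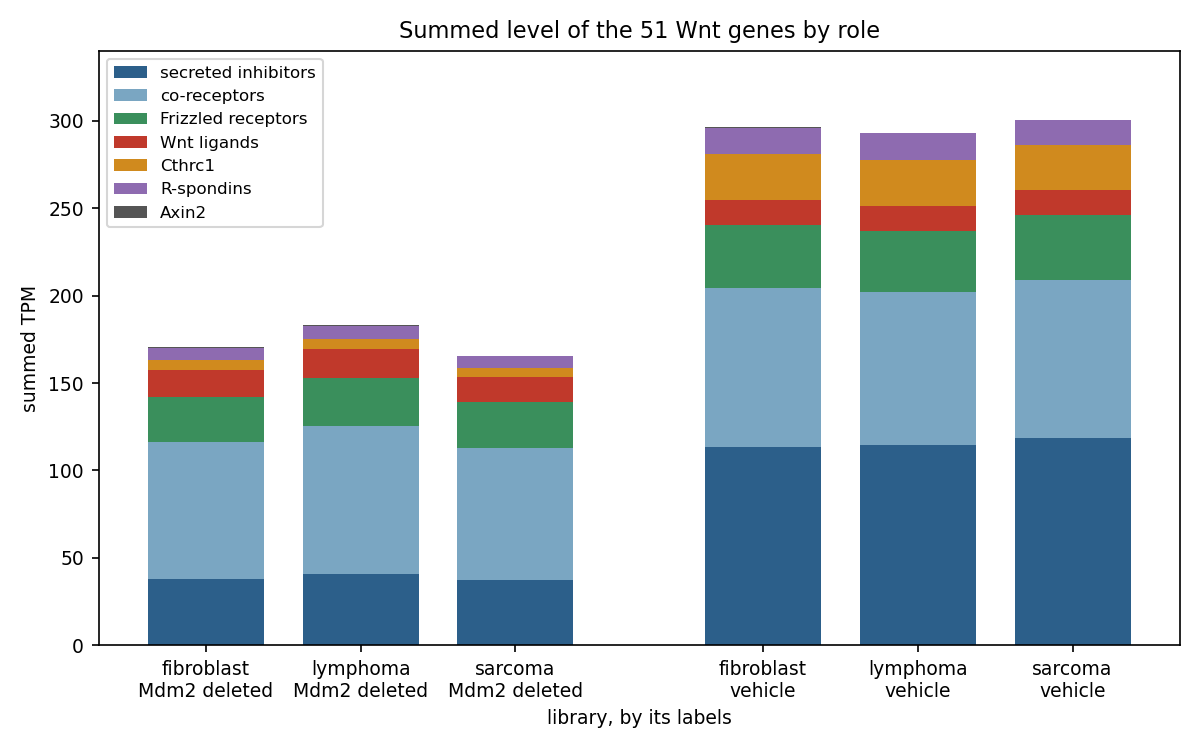
Summed TPM of the 51 Wnt genes in each library, stacked by role, with the 3 libraries labelled Mdm2 deleted on the left and the 3 labelled vehicle on the right. Totals are 165 to 183 TPM in deleted and 293 to 301 TPM in vehicle, and the secreted inhibitors (lowest block) take 37.5 to 40.9 TPM in deleted against 113 to 118 TPM in vehicle. Dkk2 and Dkk3 hold most of that block in both arms.

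In the shared fit, 13 of the 25 tested genes were lower in deleted (52%) and 2 were higher (8%), while 10 did not pass the threshold. Over all tested genes the shares were 24.6% lower and 25.0% higher. The median log2 fold change was -0.29 over the tested Wnt genes and 0.02 over all tested genes. By CPM, the 3 libraries labelled deleted all lay below the 3 labelled vehicle for 13 of the 25 genes and all above for 3, where the shares over all tested genes were 27.8% below and 27.7% above. By role, 3 of 6 tested secreted inhibitors, 4 of 7 Frizzled receptors, 3 of 4 co-receptors, the 1 tested R-spondin, Cthrc1 and Axin2 were lower, and none of the 5 tested ligands was.

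**Figure D2:**
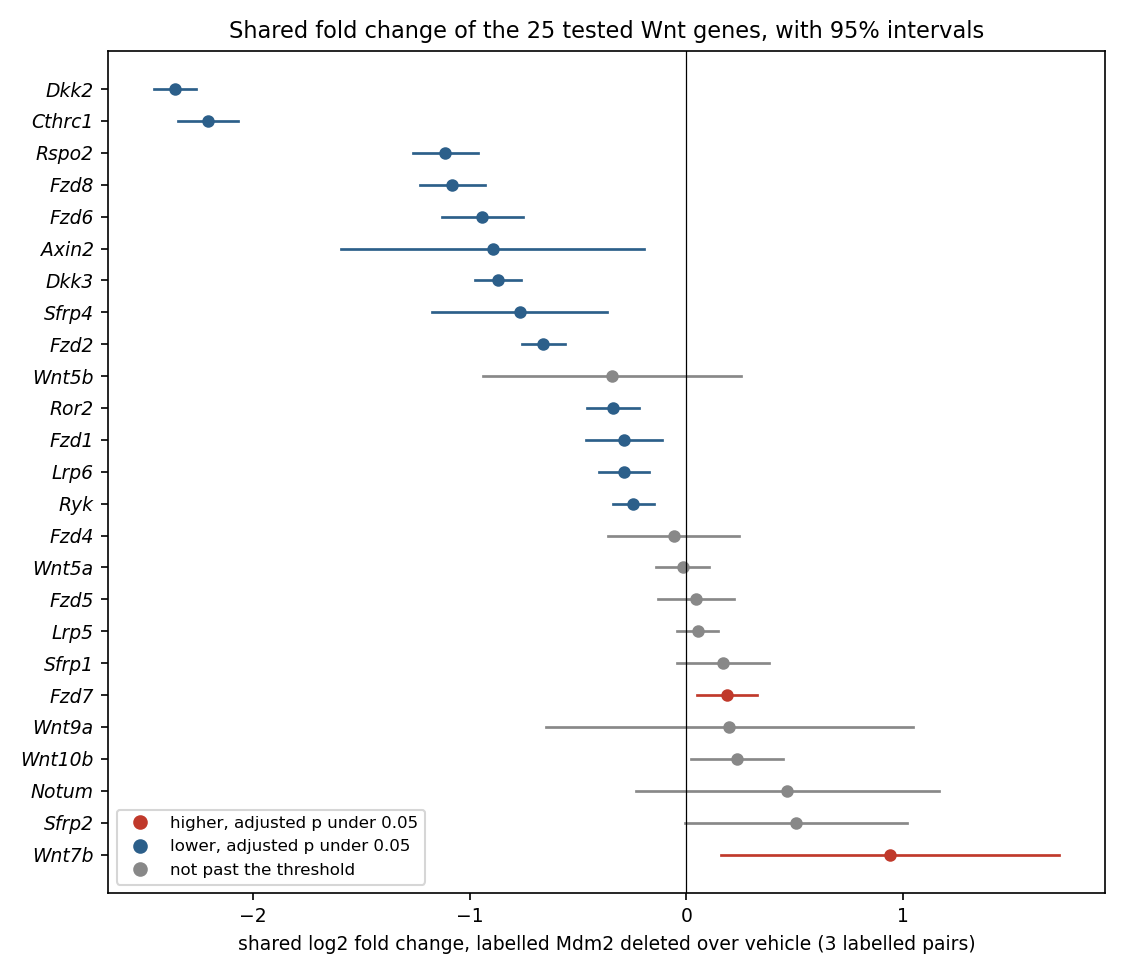
Shared log2 fold change (libraries labelled Mdm2 deleted over those labelled vehicle, edgeR over 3 labelled pairs) of the 25 tested genes, with bars for the 95% interval and colour for the call. Dkk2 and Cthrc1 lie at -2.36 and -2.21, apart from the next gene, Rspo2, at -1.11; Axin2, Wnt5b, Wnt9a, Notum, Sfrp2 and Wnt7b have wide intervals.

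Among the secreted inhibitors, Dkk2 had the largest difference. Dkk2 encodes a Dickkopf protein that binds Lrp5 and Lrp6 and, depending on the context, blocks or weakly activates them. Its level was 15.04, 16.3 and 15.1 TPM in the libraries labelled deleted, against 76.8, 77.5 and 79.4 TPM in those labelled vehicle. The arms were far apart and the labelled cell types within an arm nearly alike. Dkk2 was the first of the 51 genes by TPM in vehicle, where it held 25.9% to 26.4% of their summed TPM, and the fourth in deleted, with 8.82% to 9.12% and a range that overlapped that of Lrp5. The shared fold was 5.14-fold lower (log2 fold change -2.36 ± 0.04 SE, edgeR adjusted p = 2.39e-12). Without Dkk2, the summed TPM of the remaining genes was still 150 to 167 in deleted and 215 to 221 in vehicle.

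Dkk3, a divergent family member, also fell. It had 37.2, 36.5 and 36.5 CPM in deleted, against 63.3, 67.2 and 71.1 CPM in vehicle, with a log2 fold change of -0.87 ± 0.05 (SE; edgeR adjusted p = 5.29e-08). Dkk1, the best-known inhibitor of this family, and Dkk4 had no count in any library. The Dickkopf RNA read in these cells was therefore that of Dkk2 and Dkk3, apart from 0 to 2 counts of Dkkl1 per library.

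The secreted Frizzled-related proteins, which bind Wnt ligands as decoys, did not move together. Sfrp4 was lower, at 1.29, 1.13 and 0.867 CPM in deleted and 2.07, 1.76 and 1.75 CPM in vehicle (log2 fold change -0.77 ± 0.18 SE, edgeR adjusted p = 0.00476). It rests on 24 to 38 counts per library in deleted and 52 to 66 in vehicle, and DESeq2 gave it an adjusted p of 0.102. Sfrp1, the most abundant of them, had 6.55, 6.35 and 6.94 CPM in deleted and 6.39, 5.70 and 5.60 CPM in vehicle, ranges that overlapped (log2 fold change 0.17, edgeR adjusted p = 0.168). Sfrp2 had 0.903 to 1.29 CPM in deleted and 0.574 to 0.983 CPM in vehicle (edgeR adjusted p = 0.0948). Notum, the enzyme that strips the lipid from Wnt proteins, had 0.413 to 0.509 CPM in deleted and 0.319 to 0.351 CPM in vehicle; its arms did not overlap, but at 10 to 15 counts per library its edgeR adjusted p was 0.250. Wif1, a further Wnt-binding inhibitor, had at most 2 counts.

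The promoter letters of the Dickkopf pair with the largest contrast, Dkk2 with the top level in vehicle and Dkk1 with no count, are shown here from RefSeq (GRCm38.p6), as the 250 bases before the annotated start, 5′ to 3′ on the gene's strand. Dkk2 lies on the plus strand (chr3:132085042-132085291) and Dkk1 on the minus strand (chr19:30549497-30549746). Capitals mark the TCF/LEF core CTTTGA on either strand (TCAAAG on the other).
Dkk2: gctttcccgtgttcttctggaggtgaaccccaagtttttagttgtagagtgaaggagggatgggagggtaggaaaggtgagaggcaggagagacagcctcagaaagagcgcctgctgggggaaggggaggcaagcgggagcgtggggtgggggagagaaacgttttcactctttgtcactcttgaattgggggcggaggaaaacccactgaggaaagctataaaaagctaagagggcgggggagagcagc
Dkk1: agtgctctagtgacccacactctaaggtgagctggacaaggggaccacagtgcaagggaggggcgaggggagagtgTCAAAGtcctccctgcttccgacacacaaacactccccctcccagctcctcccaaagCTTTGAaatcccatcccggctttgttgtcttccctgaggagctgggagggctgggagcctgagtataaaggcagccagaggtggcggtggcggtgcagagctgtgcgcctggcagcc
The Dkk1 stretch holds the core at 2 places and the Dkk2 stretch at none. Only these exact letters were searched, so close spellings such as CTTTGT, which both stretches hold, were not marked. Over the full 300-base windows, which include 50 bases past the start, 16.0% of 32851 RefSeq promoters hold this core, and so do 5 of the 36 promoters found for 33 of the 51 genes (Dkk1, Fzd1, Ror1, Wnt11 and Wnt5b, or 13.9%). An interferon-stimulated element core, GAAANNGAA on either strand, occurs in 8.56% of all promoters and in 2 of the 36, those of Rspo1 and Sfrp5, neither of which was expressed above the filter. A letter match is a description and not a binding site. The table has no entry for Lrp5, Dkk3, Fzd8, Fzd3, Wnt5a, Cthrc1, Dkk4, Wnt10a, Wnt8a, Sfrp4, Rspo3, Rspo2, Sfrp1, Notum, Fzd2, Fzd6, Wnt7b and Lrp6.

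Cthrc1 and Rspo2, secreted proteins that favour Wnt signalling, were lower as well. Cthrc1 encodes a collagen triple helix repeat protein that is known in mice to join Wnt, Frizzled and Ror2 for the polarity branch, and it had 7.97, 7.25 and 7.37 CPM in deleted, against 35.2, 34.8 and 34.4 CPM in vehicle. Its 4.62-fold difference (log2 fold change -2.21 ± 0.06 SE, edgeR adjusted p = 1.12e-10) was far beyond the spread within either arm. Rspo2, the R-spondin read here, had 9.40, 8.79 and 8.71 CPM in deleted, against 19.3, 20.2 and 18.7 CPM in vehicle. It was 2.16-fold lower (log2 fold change -1.11 ± 0.07 SE, edgeR adjusted p = 1.20e-07), with no overlap of the arms. Rspo1 and Rspo3 had at most 3 counts in any library and Rspo4 none.

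Of the 7 tested Frizzled receptors 4 fell, 1 was higher and 2 did not pass the threshold. The shares over all tested genes were 24.6% lower and 25.0% higher. Fzd8 had 10.1, 9.24 and 10.9 CPM in deleted, against 20.8, 21.4 and 21.9 CPM in vehicle (log2 fold change -1.08 ± 0.07 SE, edgeR adjusted p = 1.70e-07). Fzd6, known in mice for hair and tissue polarity, had 4.82, 5.34 and 5.27 CPM in deleted, against 9.13, 10.1 and 10.4 CPM in vehicle (log2 fold change -0.94 ± 0.08 SE, edgeR adjusted p = 3.53e-06). Both genes were lower in each library labelled deleted than in any labelled vehicle.

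Fzd2, the receptor with the highest TPM of its family in both arms, had 43.4, 42.0 and 41.8 CPM in deleted, against 66.2, 64.9 and 69.9 CPM in vehicle (log2 fold change -0.66 ± 0.04 SE, edgeR adjusted p = 3.03e-07). Fzd1 had the smallest fall of the family, at 9.74, 10.1 and 11.2 CPM in deleted and 13.1, 12.8 and 12.03 CPM in vehicle (log2 fold change -0.29 ± 0.08 SE, edgeR adjusted p = 0.0106), but did not pass without the pair labelled lymphoma (adjusted p = 0.0603), in DESeq2 (0.106) or in limma on log2(TPM + 1) (0.209). Fzd7 was the receptor that was higher, with 17.5, 17.3 and 19.6 CPM in deleted and 15.1, 16.4 and 16.3 CPM in vehicle. Its difference was small (log2 fold change 0.19 ± 0.06 SE, edgeR adjusted p = 0.0302) and did not pass without the pair labelled fibroblast (adjusted p = 0.125) or sarcoma (0.145), nor in DESeq2 (0.256). Fzd4 and Fzd5 overlapped between the arms, with log2 fold changes of -0.06 and 0.04. Fzd3 and Fzd10 had at most 1 count in any library and Fzd9 2 to 10.

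The order of the Frizzled genes by level differed between the arms in the place of Fzd8. Fzd2 was first at 12.01 ± 0.650 TPM in deleted and 18.6 ± 0.728 TPM in vehicle (SD, n = 3 each). Fzd7 was the second in deleted at 5.11 ± 0.309 TPM, where vehicle had 4.40 ± 0.166 TPM. Fzd8, at 2.33 ± 0.0935 TPM in deleted, overlapped the range of Fzd5 there, while its 4.84 ± 0.0957 TPM in vehicle lay above all Frizzled genes but Fzd2.

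**Figure D3:**
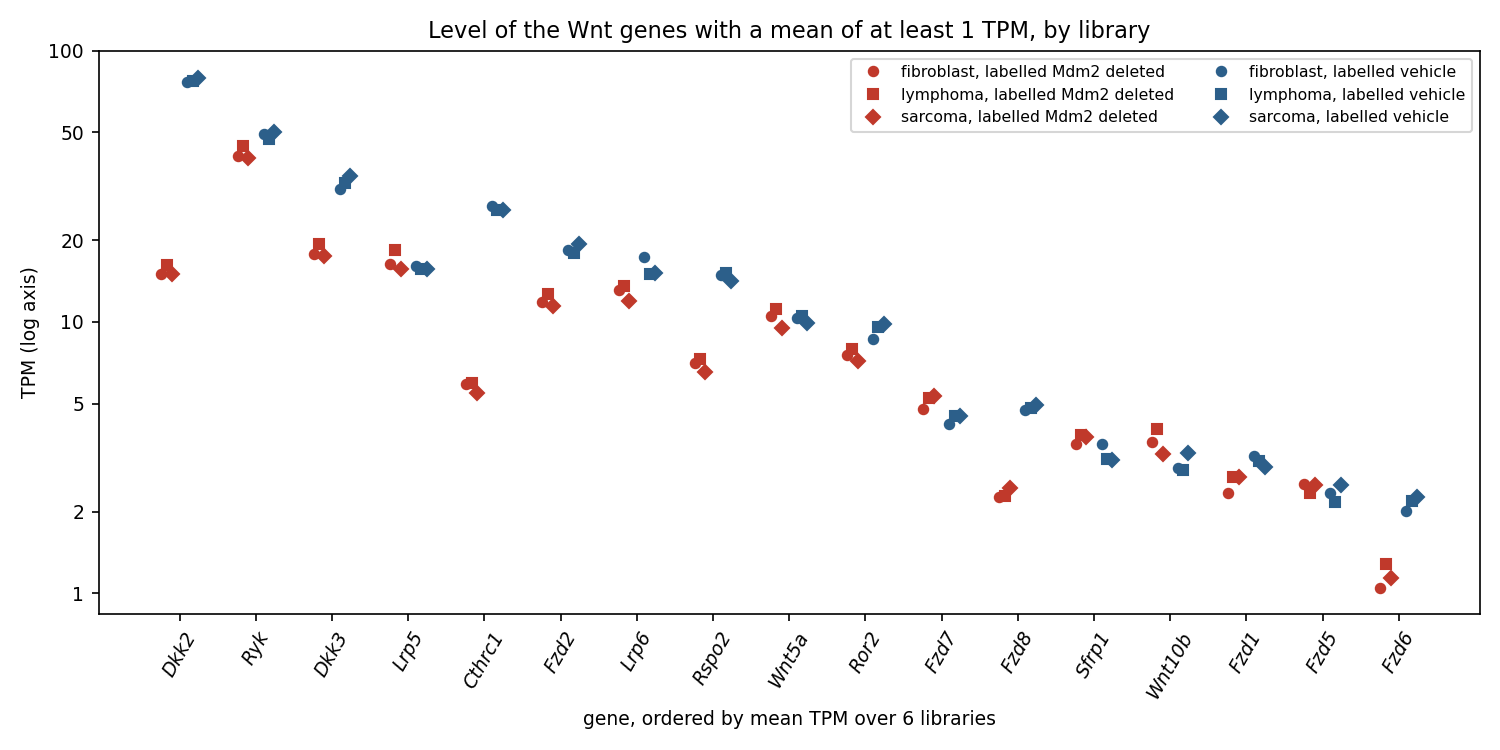
TPM (log axis) of the 17 Wnt genes with a mean of at least 1 TPM, 1 point per library, with the libraries labelled Mdm2 deleted in red on the left of each gene and those labelled vehicle in blue on the right. Dkk2 is the top gene in vehicle (76.8 to 79.4 TPM) and lies among Dkk3, Lrp5 and Lrp6 in deleted (15.04 to 16.3 TPM), while Lrp5, Wnt5a and Fzd5 overlap between the arms.

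Co-receptors differed by smaller amounts. Ryk, a Wnt-binding kinase-like receptor, had 157, 154 and 154 CPM in deleted, against 183, 179 and 189 CPM in vehicle (log2 fold change -0.24 ± 0.04 SE, edgeR adjusted p = 0.000568). Ror2, the Wnt5a receptor kinase, had 47.6, 45.2 and 45.1 CPM in deleted, against 53.5, 59.8 and 61.0 CPM in vehicle (log2 fold change -0.34 ± 0.05 SE, edgeR adjusted p = 0.000334). Lrp6 had 110, 105 and 115 CPM in deleted, against 139, 137 and 126 CPM in vehicle (log2 fold change -0.29 ± 0.05 SE, edgeR adjusted p = 0.000783). The arms of these 3 genes did not overlap, although in limma on log2(TPM + 1) none of them passed, with adjusted p of 0.0841 for Ror2, 0.0850 for Lrp6 and 0.139 for Ryk. Lrp5, which shares the role of Lrp6, had 151, 159 and 152 CPM in deleted and 144, 149 and 153 CPM in vehicle, with overlapping arms (log2 fold change 0.05, 95% interval -0.04 to 0.14, edgeR adjusted p = 0.347). Ror1 had at most 2 counts, so the Ror RNA read here was that of Ror2.

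By TPM, Ryk was the first of the 51 genes in deleted at 42.0 ± 2.26 TPM and the second in vehicle at 48.8 ± 1.49 TPM (SD, n = 3 each). Lrp5 at 16.9 ± 1.41 TPM and Lrp6 at 12.9 ± 0.840 TPM were apart in deleted, whereas in vehicle Lrp5 at 15.8 ± 0.210 TPM lay within the range of Lrp6 at 15.9 ± 1.33 TPM. Ryk reads were shared about evenly between the coding transcripts Ryk-201 (46.2% to 50.1% of its TPM in deleted, 43.7% to 49.8% in vehicle) and Ryk-203, which differ little in length.

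The promoters of Fzd1 and Ror2 are shown because these genes were lower and have a match among the motifs searched. Capitals mark the TCF/LEF core in Fzd1 (chr5:4758217-4758466, minus strand) and the AP-1 motif TGANTCA in Ror2 (chr13:53286125-53286374, minus strand), again as the 250 bases before the RefSeq start in GRCm38.p6.
Fzd1: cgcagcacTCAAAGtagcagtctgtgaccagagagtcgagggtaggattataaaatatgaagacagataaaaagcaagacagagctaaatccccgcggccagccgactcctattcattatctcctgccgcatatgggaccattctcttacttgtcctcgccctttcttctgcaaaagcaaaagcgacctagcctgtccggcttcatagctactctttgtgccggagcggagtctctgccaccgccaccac
Ror2: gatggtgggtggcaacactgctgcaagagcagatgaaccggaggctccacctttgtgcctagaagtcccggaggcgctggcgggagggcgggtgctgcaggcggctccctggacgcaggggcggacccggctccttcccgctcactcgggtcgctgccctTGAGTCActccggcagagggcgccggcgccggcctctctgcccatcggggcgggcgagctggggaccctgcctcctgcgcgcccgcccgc
The AP-1 motif reads the same on both strands and occurs in 7.81% of all RefSeq promoters and in 2 of the 36, those of Ror2 and Wnt5b. In Fzd1 the core stands near the far end of the stretch and in Ror2 the match stands in the part closer to the start. The promoters found for Dkk2, Fzd7, Ryk and Axin2 hold none of the 3 motifs.

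Wnt5a and Wnt10b, the ligands at 1 TPM or more, differed little between the arms. Wnt5a, the main ligand of the polarity branch and the ligand with the highest level, had 24.2, 23.2 and 21.8 CPM in deleted and 23.4, 24.1 and 22.5 CPM in vehicle. Its arms overlapped, and the 95% interval of its log2 fold change, -0.02, ran from -0.14 to 0.11 (edgeR adjusted p = 0.826). Wnt10b, a ligand of the beta-catenin branch, had 8.58, 8.64 and 7.69 CPM in deleted and 6.74, 6.68 and 7.70 CPM in vehicle (log2 fold change 0.23 ± 0.10 SE, edgeR adjusted p = 0.0647). The pair labelled sarcoma had nearly equal values, and without that pair the log2 fold change was 0.36 and the adjusted p 0.0153.

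Wnt7b was the ligand called higher, at 0.373, 0.376 and 0.614 CPM in deleted and 0.176, 0.270 and 0.266 CPM in vehicle (log2 fold change 0.94 ± 0.36 SE, edgeR adjusted p = 0.0463). This rests on 10 to 17 counts per library in deleted and 5 to 10 in vehicle, and it did not pass without the pair labelled fibroblast (adjusted p = 0.133), lymphoma (0.0511) or sarcoma (0.233). Wnt5b had 0.645, 0.676 and 0.722 CPM in deleted and 0.983, 1.08 and 0.584 CPM in vehicle, and Wnt9a 0.289 to 0.407 CPM in deleted and 0.176 to 0.439 CPM in vehicle, both with overlapping arms.

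The other 14 ligands were below the filter. Wnt11 had 10, 7 and 4 counts in deleted and 1, 3 and 2 in vehicle. Wnt10a had 7, 4 and 8 counts in deleted and 1, 2 and 2 in vehicle, and Wnt2b 6, 7 and 3 in deleted and 2, 1 and 2 in vehicle. Each of these 3 had more counts in every library labelled deleted than in any labelled vehicle, but at 10 counts or fewer the main test left them out. By CPM, 27.7% of all tested genes also had the 3 libraries labelled deleted above the 3 labelled vehicle. Those genes passed the filter, so that share does not describe genes at such low counts. Wnt6 had 3, 5 and 1 counts in deleted and 0, 0 and 1 in vehicle, with arms that did not overlap by CPM. Wnt16 had 1 to 5 counts, and Wnt1, Wnt2, Wnt3, Wnt4, Wnt7a and Wnt8a at most 2.

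Axin2, an intracellular scaffold that beta-catenin induces as a negative feedback, was lower at low counts. It had 11, 13 and 7 counts in deleted and 25, 17 and 23 in vehicle, which is 0.373, 0.489 and 0.253 CPM in deleted and 0.878, 0.574 and 0.611 CPM in vehicle. The arms did not overlap (log2 fold change -0.89 ± 0.32 SE, edgeR adjusted p = 0.0360), but the call was lost in DESeq2 (adjusted p = 0.298), without the pair labelled fibroblast (0.172) and without the pair labelled sarcoma (0.142). Its summed TPM, which enters the sums over all 51 genes, ran the other way in 2 of 3 pairs, at 0.462, 0.389 and 0.0495 TPM in deleted and 0.249, 0.229 and 0.254 TPM in vehicle. In the library labelled fibroblast deleted, 87.8% of that TPM came from a few reads on a target of 207 bases.

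Within each labelled pair there is 1 library per arm and therefore no test. At a mean of at least 1 CPM, Dkk2, Cthrc1, Rspo2 and Fzd8 were at least 2-fold lower in the pair labelled fibroblast, 4 of 20 genes, where 0.767% of all genes were that much lower and 3.32% that much higher. The same 4 of 19 genes were at least 2-fold lower in the pair labelled lymphoma, against 0.880% of all genes lower and 3.31% higher. In the pair labelled sarcoma Dkk2, Cthrc1 and Rspo2 were, 3 of 19, against 0.925% of all genes lower and 3.40% higher. Fzd8 lay just inside the limit there, at a log2 ratio of -0.97 with 0.5 CPM added to both sides. Its plain CPM ratio in that pair was 0.499, so the added 0.5 CPM decided this count. None of the genes counted at a mean of at least 1 CPM was at least 2-fold higher in any pair. Genes below that level were not counted in either direction.

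The ratios of the pairs lay close together for the genes with the largest differences. The CPM ratio of Dkk2, deleted over vehicle, was 0.201 (95% counting interval 0.184 to 0.219) in the pair labelled fibroblast, 0.191 (0.175 to 0.209) in lymphoma and 0.192 (0.176 to 0.209) in sarcoma. For Cthrc1 it was 0.227 (0.196 to 0.261), 0.209 (0.178 to 0.244) and 0.214 (0.184 to 0.248) in the same order. Exact binomial (Clopper-Pearson) intervals cover counting error only. For both genes the interval of the pair labelled lymphoma, exposed for 6 h, overlapped those of the pairs exposed for 48 h.

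**Figure D4:**
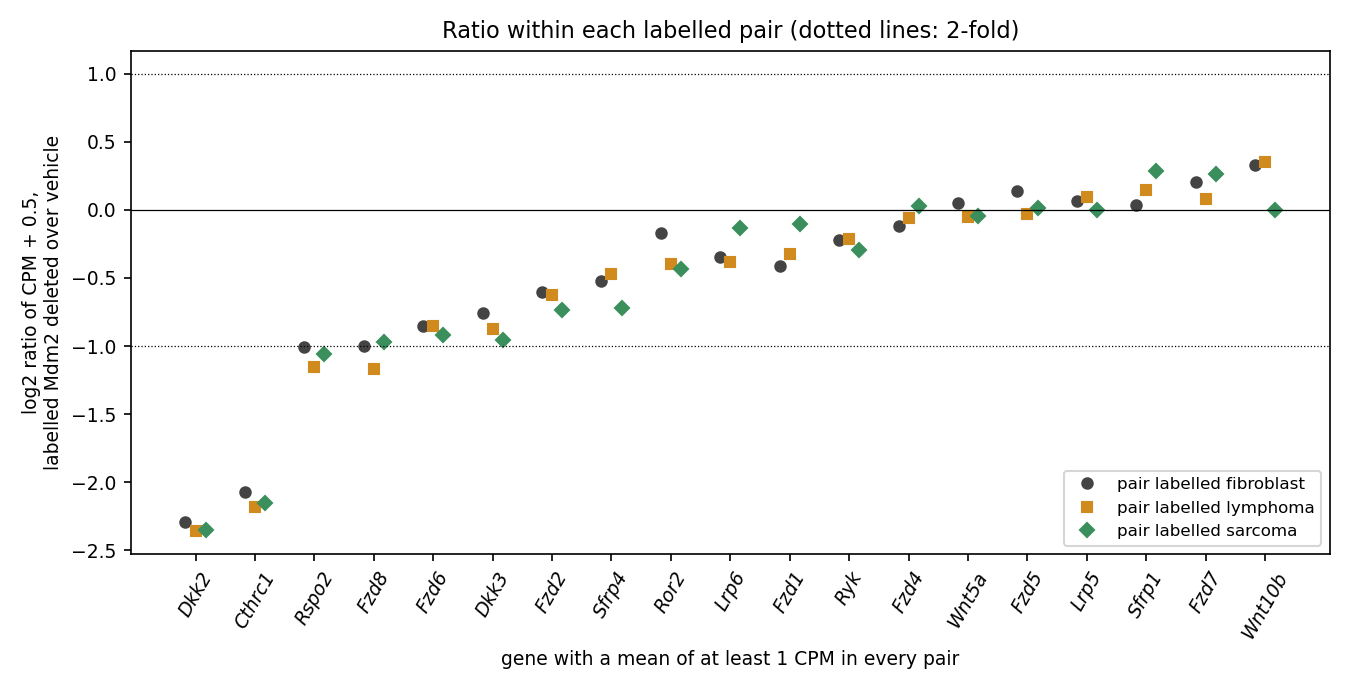
Log2 ratio of CPM + 0.5, libraries labelled Mdm2 deleted over vehicle, for the 19 Wnt genes that averaged 1 CPM or more in every labelled pair, 1 point per pair. Dkk2 and Cthrc1 lie below -2 in all 3 pairs, Rspo2 lies below -1 in all 3, Fzd8 lies close to -1 in all 3, and the pairs scatter around 0 for Wnt5a, Fzd4 and Fzd5.

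Cthrc1 and Fzd6 are neighbours. On GRCm38 (GENCODE M21) Fzd6 spans chr15:39006034-39038188 and Cthrc1 chr15:39076932-39087121, both on the plus strand, 38.7 kb apart. The genes within 500 kb of them, named after their values were seen, did not all move the same way. Baalc, on the other side of Fzd6, was lower at 0.357 ± 0.0612 CPM in deleted and 0.974 ± 0.0922 CPM in vehicle (SD, n = 3 each; edgeR adjusted p = 0.00110), and Slc25a32 was lower by a small amount (log2 fold change -0.21, adjusted p = 0.0490). Dcaf13 and Atp6v1c1, farther out on either side, were higher (log2 fold changes 0.37 and 0.42, edgeR adjusted p = 0.000100 and 2.11e-05), and Azin1 and Rims2 did not pass (0.0912 and 0.865). Of the other gene pairs of the set within 100 kb of each other, Wnt10b with Wnt1, Wnt6 with Wnt10a, Wnt3a with Wnt9a and Wnt9b with Wnt3, none had both genes above the filter.

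Beyond the 51 genes, lists of the remaining Wnt pathway were read in the same fit. Over all tested genes, 25.0% were higher and 24.6% lower, with a median log2 fold change of 0.02. Calls in both directions are therefore common to any list, and no list was tested against these shares. Of 29 tested genes that carry the signal inside the cell, 5 were higher, 9 lower and 15 did not pass, with a median log2 fold change of -0.00251. Without the pair labelled sarcoma 8 were higher, and without the pair labelled lymphoma 5 were lower. Tle2, a Groucho co-repressor, fell most, to 20.3, 20.6 and 19.9 CPM in deleted, against 54.1, 54.9 and 47.6 CPM in vehicle (log2 fold change -1.36, edgeR adjusted p = 1.91e-09). Pygo1, Apc2 and Tcf7l2 were lower too, at -0.87, -0.44 and -0.40. Pygo1 was at a low level with overlapping arms, 0.289 to 0.564 CPM in deleted and 0.527 to 0.929 CPM in vehicle (edgeR adjusted p = 0.0379). Lef1, a TCF/LEF factor, was higher at 0.58, Tle1 at 0.32, Axin1 at 0.28 and Apc at 0.22. Beta-catenin itself (Ctnnb1), added after its value was seen, did not pass, at 0.11.

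Of 14 tested genes of Wnt secretion and receptor turnover, 6 were higher, 5 lower and 3 did not pass, with a median of 0.04. Shares over all tested genes were 25.0% higher and 24.6% lower. The R-spondin receptors split: Lgr4 was higher, at 19.5, 19.5 and 18.7 CPM in deleted and 15.5, 14.8 and 14.8 CPM in vehicle (log2 fold change 0.35, edgeR adjusted p = 0.000487), and Lgr6 was lower, at 4.24, 4.25 and 4.95 CPM in deleted and 7.90, 9.11 and 9.53 CPM in vehicle (log2 fold change -0.98, edgeR adjusted p = 5.32e-06). The ubiquitin ligases that R-spondins remove from the surface split as well, with Znrf3 at 0.36 and Rnf43 at -0.72. Porcn, the enzyme that attaches the lipid to Wnt proteins, was lower at -0.61, Sulf1 was lower at -0.43, and Sulf2 and Tmed5 were higher at 0.43 and 0.60.

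Of 10 tested extracellular Wnt modulators outside the 51 genes, 6 were lower, 1 was higher and 3 did not pass, with a median of -0.21. All tested genes had 24.6% lower and 25.0% higher. Reck, part of the receptor complex for Wnt7 ligands, had 2.61, 3.53 and 2.96 CPM in deleted, against 6.85, 7.32 and 7.01 CPM in vehicle (log2 fold change -1.22, edgeR adjusted p = 3.74e-06). Apcdd1, a membrane inhibitor of Wnt, was lower at -1.02, the secreted Igfbp4 at -0.48 and the Dickkopf receptor Kremen1 at -0.47. Tpbg was the gene that was higher, at 0.26.

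Genes that beta-catenin often induces did not share 1 direction. Nor did the tested genes as a whole, of which 25.0% were higher and 24.6% lower, so this mixture is not particular to the list. Of 20 tested, 9 were higher, 5 lower and 6 did not pass, with a median of 0.21. Ccnd2 had 10.5, 11.4 and 10.1 CPM in deleted, against 5.02, 4.79 and 3.98 CPM in vehicle (log2 fold change 1.22, edgeR adjusted p = 7.16e-07), and Myc, Fosl1 and Lef1 were higher at 0.61, 0.60 and 0.58. Apcdd1, Bmp4, Rnf43 and Cd44 were lower, at -1.02, -0.80, -0.72 and -0.29. Many of these genes respond to other signals too, and Lef1, Tcf7, Apcdd1, Rnf43, Znrf3, Lgr5 and Dact1 each stand on 2 of the lists.

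In the list of planar cell polarity and noncanonical signalling, 6 of 24 tested genes were higher, 9 lower and 9 did not pass, with a median of -0.08. Among all tested genes 25.0% were higher and 24.6% lower. Prickle4, Fuz, Prickle2 and Prickle3 were lower, at -1.04, -0.62, -0.59 and -0.55. Prickle4 was at a low level, with 0.433 to 0.678 CPM in deleted and 0.844 to 1.26 CPM in vehicle. Dact2, Daam1 and Intu were higher, at 0.77, 0.60 and 0.42. Celsr2, a polarity cadherin, was higher at a low level, 0.475, 0.902 and 0.470 CPM in deleted and 0.105, 0.0675 and 0.159 CPM in vehicle (log2 fold change 2.36, edgeR adjusted p = 0.000972).

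**Figure D5:**
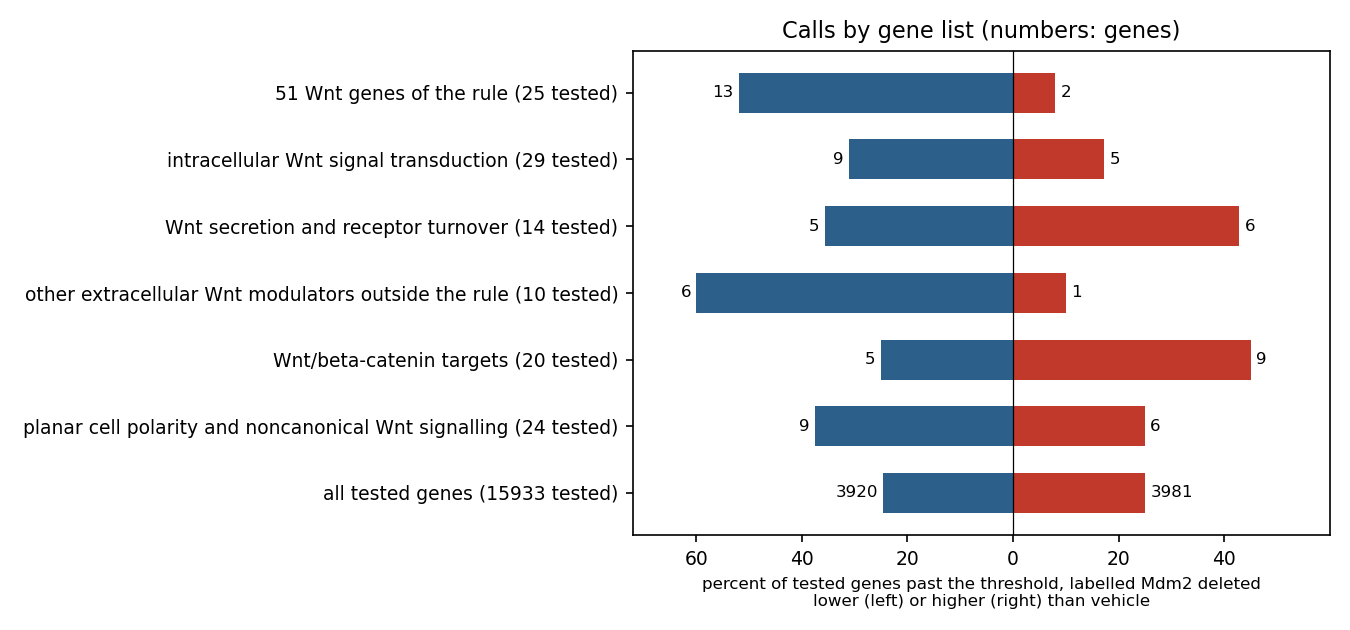
Percent of tested genes that passed the threshold, lower (left, blue) or higher (right, red) in the libraries labelled Mdm2 deleted than in those labelled vehicle, for the 51 Wnt genes, 5 lists of the pathway and all tested genes; the numbers at the bars are genes. The 51 genes have 13 lower and 2 higher of 25 tested, and the beta-catenin targets 5 lower and 9 higher of 20.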

How the data were processed

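Estimated counts and TPM per transcript were deposited by the authors, who ran kallisto 0.43.0 on GRCm38 according to the submitters' processing notes. Neither its strand setting nor the transcript set is given in the sources used here. Of 76055 targets, 75049 matched GENCODE M21 by transcript identifier, and the rest held 0.393% to 0.410% of counts and were left out. Of 80 protein-coding targets of the Wnt genes, 76 had exactly the coding length, so reads in their untranslated regions were not counted. Expected counts were summed per gene and rounded, and the authors' TPM were summed per gene to compare levels between genes. Kallisto splits reads between near-identical sequences by likelihood: the identical coding targets of Fzd6 and of Wnt10b received even splits and were read as sums. Libraries held 26243064 to 37517726 estimated counts.

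The shared test was edgeR 4.0.16 (glmQLFit, two-sided; TMM; filterByExpr by arm with a minimum count of 10; cell type label as a block; Benjamini-Hochberg over 15933 genes), with 2 residual degrees of freedom and 9.23 prior ones. It was tested on simulated data. Pairs come from the labels. Libraries of an arm differed by more than counting noise (chi-square per degree of freedom 11.2 to 112), so none was treated as a file deposited more than once; this does not show that they come from separate cultures. Within pairs, log2 ratios used CPM + 0.5. Alternatives were DESeq2 1.42.0, RLE size factors, no filter, no block, protein-coding genes only, limma 3.58.1 on log2(TPM + 1) and log2(TPM + 0.1) for genes with a mean of at least 1 TPM, each pair left out, other pseudocounts and a minimum of 5 CPM. R 4.3.3, Python 3.11.15 and pandas 2.3.3 were used. The Wnt genes, the pathway lists and the tests were chosen with earlier results of these data known, so the lists are not independent evidence. Every gene of the set past the threshold was described, and from each list the up to 4 genes per direction with the largest log2 fold change among those past it. Promoter letters were read from RefSeq and matched by symbol.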

Additional observations from a re-analysis of the deposited data

How the results depend on the processing

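Of the 13 lower Wnt genes, 7 (Dkk2, Cthrc1, Rspo2, Fzd8, Fzd6, Dkk3 and Fzd2) passed the threshold in the main test and in all 10 alternatives. The number of Wnt genes lower was 13 with edgeR, 10 with DESeq2, 7 with limma on log2(TPM + 1) and on log2(TPM + 0.1), and 12 with any 1 labelled pair left out. The number higher was 2 with edgeR, 1 with no replicate block, 0 with DESeq2 and with both limma settings, and 0 to 1 with a pair left out. With no block, Wnt7b had an edgeR adjusted p of 0.0508. Without the pair labelled sarcoma, the 1 gene higher was Wnt10b. With no filter on low counts 1 gene was higher as well, but neither Wnt7b (edgeR adjusted p = 0.104) nor Fzd7 (0.0692) passed there. That 1 gene was among those below the filter of the main test. Restricted to protein-coding genes, Wnt10b passed too (adjusted p = 0.0324). Over all genes, DESeq2 called 2541 higher and 2488 lower, limma on log2(TPM + 1) 1475 and 899, and limma on log2(TPM + 0.1) 1443 and 883, against 3981 and 3920 with edgeR, so that 62.1% and 62.0% of the limma calls were higher, against 50.4% in edgeR. With a pseudocount of 2 CPM, 2 Wnt genes were at least 2-fold lower in the pair labelled fibroblast. The pathway lists lost calls with other tools: DESeq2 called 5 signal transduction genes lower (9 in edgeR) and 3 secretion and turnover genes higher (6). Limma on log2(TPM + 1) called 0 higher and 1 lower in the signal transduction list, 1 and 1 in secretion and turnover, 0 and 3 among other extracellular modulators, 6 and 2 among beta-catenin targets and 2 and 3 in planar polarity. Among protein-coding genes, 8 signal transduction genes were higher (5 in edgeR over all genes), and 2 other extracellular modulators were higher there, with no filter and with no block (1 in edgeR). The direction changed for genes near 0: Wnt5a was at 0.0121 with limma on log2(TPM + 1), 0.0129 on log2(TPM + 0.1), 0.00198 among protein-coding genes and between -0.0720 and 0.00158 with a pair left out, Fzd5 between -0.0290 and 0.0781, and Wnt9a between -0.21 and 0.36. The cause of these differences was not tested. The limma settings test 13850 genes and leave out 8 of the 25 Wnt genes, Axin2, Sfrp4 and Wnt7b among them. Counts of 30 or fewer limit what can be said of Axin2, Wnt7b, Wnt9a and Notum.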
